A study of Homo sapiens with 12 samples.

Results

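The replication-dependent histone genes were described in EA.hy926 cells, a human hybrid line derived from endothelium of the umbilical vein and from A549, a lung carcinoma. They were taken as every gene of the value table whose current symbol was H1-1 to H1-5 or began with H2AC, H2BC, H3C or H4C and a number. This gave 57 of 18417 genes, made up of 5 H1, 14 H2A, 17 H2B, 8 H3 and 13 H4 genes, with 1 pseudogene, H2BC19P, among them. By the RefSeq annotation 48 of them lie in the HIST1 locus on chromosome 6, 6 in HIST2 and 2 in HIST3 on chromosome 1, and 1, H4C16, in HIST4 on chromosome 12. H4C14 and H4C15 had identical values on all 12 arrays and are 1 measurement, so the 57 genes are 56 separate measurements.

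There were 4 groups of confluent cultures with 3 biological replicates each and 1 array per replicate. Lo PMX and Lo control cells had been adapted to medium with 23 nM folic acid, and Hi PMX and Hi control cells were grown in parallel with 9 uM folic acid. The PMX groups received 0.5 uM pemetrexed, an antifolate that inhibits thymidylate synthase and enzymes of purine synthesis, for 48 h, and the controls received none. All groups came from 1 cell line and 10% fetal calf serum was present throughout, but the Lo cells were a culture adapted on its own, so a Lo against Hi difference also holds any other difference between the 2 cultures.

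A replicating cell packs its new DNA on histones, and H2A, H2B, H3 and H4 form the core of the nucleosome while H1 binds the linker DNA. The replication-dependent genes lie in clusters as many near-identical copies and are transcribed in S phase under the coactivator NPAT. Their short, intronless mRNAs end in a stem-loop in place of a poly(A) tail, are bound there by SLBP, and are degraded quickly when DNA synthesis stops. Some of these genes, H2BC12 and H2BC21 among them, also have longer, polyadenylated transcripts, and the replication-independent variants such as H2AZ1 and H3-3B are made from polyadenylated mRNA.

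The promoters of 7 genes on which the results below turn are printed first, because in H2B genes the octamer that binds POU2F1 is a known promoter element and because the printed genes went in opposite directions. Each is the stretch of 200 bases before the gene's start in RefSeq, build GRCh38.p14, given 5′ to 3′ on the gene's own strand. Capitals mark the octamer ATTTGCAT, the CCAAT box CCAAT and the TATA box TATAAA, searched on both strands, so a box on the other strand reads as its reverse complement.
H2BC14, chr6:27814822-27815021, plus strand: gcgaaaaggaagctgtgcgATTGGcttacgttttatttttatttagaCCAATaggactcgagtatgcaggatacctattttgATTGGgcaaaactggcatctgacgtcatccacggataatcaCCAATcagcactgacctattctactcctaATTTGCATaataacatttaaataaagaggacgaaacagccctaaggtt
H2BC9, chr6:26251414-26251613, plus strand: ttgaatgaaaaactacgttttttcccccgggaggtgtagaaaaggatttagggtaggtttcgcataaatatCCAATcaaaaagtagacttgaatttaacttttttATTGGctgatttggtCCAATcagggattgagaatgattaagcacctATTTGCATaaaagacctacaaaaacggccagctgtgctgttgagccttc
H1-5, chr6:27867589-27867788, minus strand: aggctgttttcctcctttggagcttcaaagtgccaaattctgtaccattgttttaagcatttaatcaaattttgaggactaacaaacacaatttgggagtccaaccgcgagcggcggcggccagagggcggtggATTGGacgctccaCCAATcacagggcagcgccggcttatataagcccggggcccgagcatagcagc
H3C2, chr6:26032100-26032299, minus strand: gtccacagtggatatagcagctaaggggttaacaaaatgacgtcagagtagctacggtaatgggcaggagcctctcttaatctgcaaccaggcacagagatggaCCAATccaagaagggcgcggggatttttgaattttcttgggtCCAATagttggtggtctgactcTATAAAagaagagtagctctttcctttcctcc
H2BC12, chr6:27146856-27147055, minus strand: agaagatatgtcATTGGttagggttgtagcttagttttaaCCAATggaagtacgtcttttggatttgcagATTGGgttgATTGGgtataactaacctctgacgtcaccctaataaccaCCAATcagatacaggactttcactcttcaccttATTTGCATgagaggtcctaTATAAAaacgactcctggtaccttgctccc
H2BC11, chr6:27132796-27132995, minus strand: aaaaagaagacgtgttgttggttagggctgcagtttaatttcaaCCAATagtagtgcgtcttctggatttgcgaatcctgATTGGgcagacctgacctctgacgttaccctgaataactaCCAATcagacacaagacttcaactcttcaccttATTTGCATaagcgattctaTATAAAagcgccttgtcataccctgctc
H4C8, chr6:26285535-26285734, minus strand: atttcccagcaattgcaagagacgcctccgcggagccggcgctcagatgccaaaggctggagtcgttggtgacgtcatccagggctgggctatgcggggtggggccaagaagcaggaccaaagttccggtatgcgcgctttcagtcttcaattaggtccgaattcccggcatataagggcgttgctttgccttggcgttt

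A promoter was matched for 51 of the 57 genes. The octamer stood in 13 of 16 H2B and 6 of 13 H2A promoters, in none of the 5 H1, 6 H3 and 11 H4 promoters, and in 1.35% of all 27305 promoters of the table. Some H2A and H2B genes start so close together that their promoter stretches overlap, so the same octamer can be counted for both. The H2A and H2B counts are therefore not of separate promoters. The CCAAT box stood in 43 of 51, against 28.8% of all promoters, and among H4 genes in 3 of 11. The TATA box, counted only as the exact letters TATAAA, stood in 29 of 51, against 9.12% of all promoters. Other spellings, such as the tatataag in the printed H1-5 promoter, were not counted. H2BC14, H2BC9, H2BC12 and H2BC11 all hold the octamer and the CCAAT box, although the levels of the first pair were low in Lo PMX cells and those of the second pair were high there, as given below.

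The array medians over probe sets lay between 7.24 and 7.33 on the log2 scale. Replicate 3 of the Lo controls and replicate 3 of the Hi controls, by their labels, lay with the other folate level on the first principal component of all genes, which held 61.1% of the variance. Its scores were 30.4 to 32.2 in Lo PMX cells and 7.18, 6.75 and -19.3 in Lo control replicates 1, 2 and 3. They were -19.9 to -19.5 in Hi PMX cells and -20.1, -17.8 and 8.94 in Hi control replicates 1, 2 and 3. The labels were kept, and the counts that rest on the controls are given with and without these 2 arrays.

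In Lo cells the histone genes were lower with pemetrexed, across all 5 classes. With limma over all genes, 39 of the 57 fell at an adjusted p under 0.05 and 0 rose, where 5.14% of all 18417 genes were called lower and 5.6% higher. The median log2 difference, Lo PMX minus Lo control, was -0.64 over the histone genes and 0.02 over all genes. Every Lo PMX array was below every Lo control array for 42 histone genes and above for 4, where 14.1% and 15.7% of all genes did not overlap in these directions. Without the 2 arrays named above, 33 fell and 1, H2BC12, rose, with a median of -0.55, where 5.74% of all genes fell and 5.21% rose. On these 10 arrays a fit with the replicate number as a block called 38 lower and 2 higher. The shares of all genes called in the block fit are not given here. The 6 that were no longer called without the block were H2AC13, H2AC25, H3C8, H3C10, H4C1 and H4C2. Fewer cells that carry these mRNAs and less of the mRNA per cell cannot be told apart on these arrays.

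**Figure D1:**
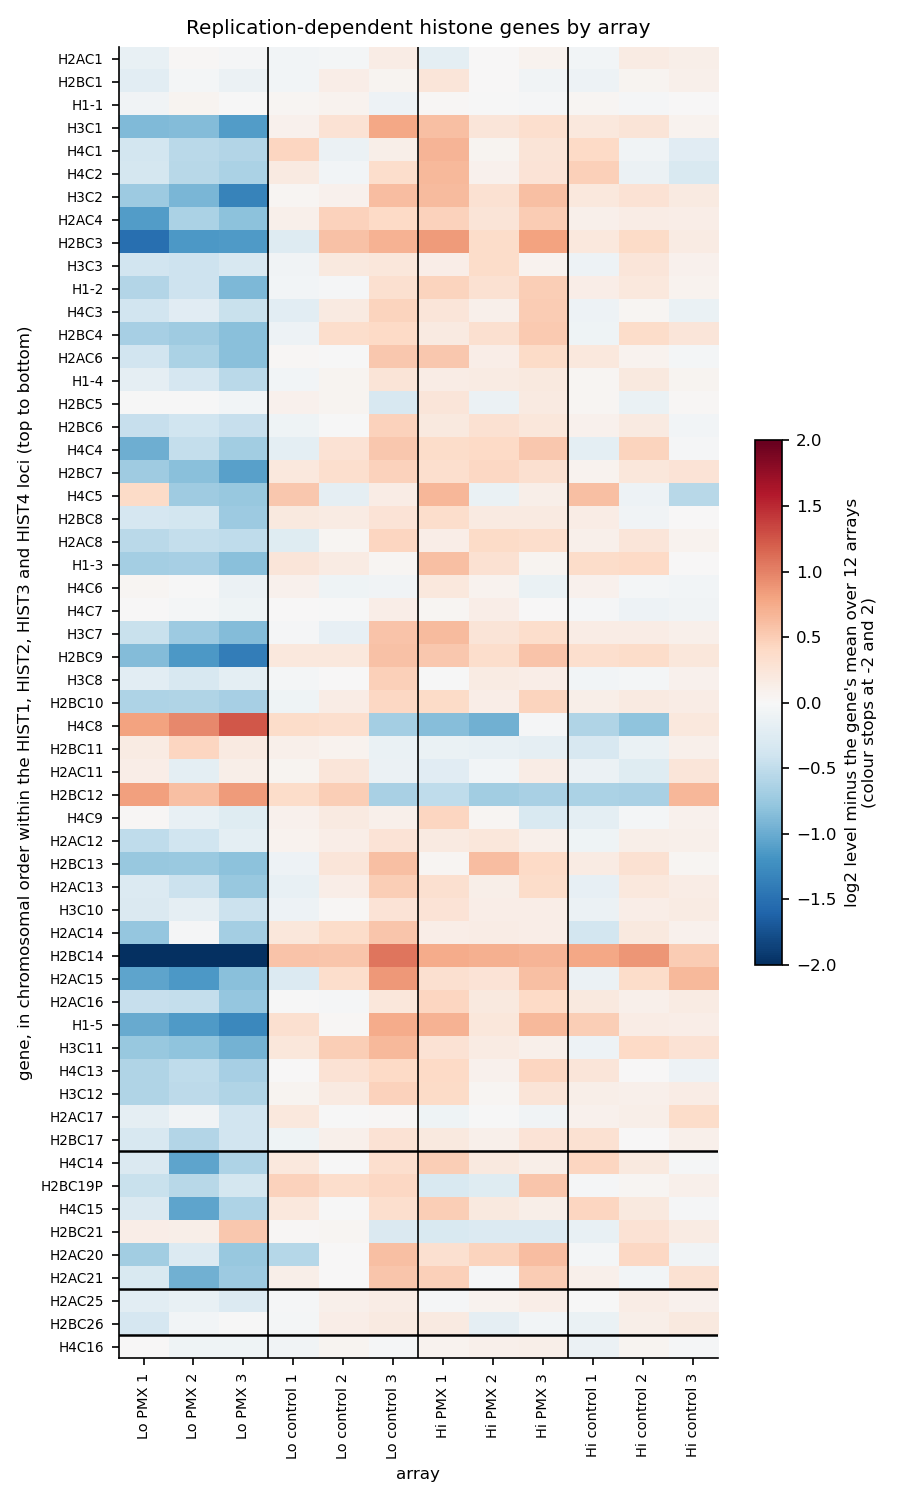
Level of each of the 57 genes on each of the 12 arrays, as log2 level minus the gene's mean over all arrays, with genes in chromosomal order and arrays by group and replicate. Most rows are blue on the 3 Lo PMX arrays, H4C8 and H2BC12 are red there, and for H2BC12 the arrays Lo control 3 and Hi control 3 show the colours of the other folate level.

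Among H2B genes, which pair with H2A in the nucleosome, 11 of 17 fell. H2BC14 had log2 levels of 9.48, 9.40 and 9.56 in Lo PMX cells, against 12.21, 12.20 and 12.72 in Lo control cells. It had 12.38, 12.35 and 12.32 in Hi PMX cells, against 12.41, 12.53 and 12.16 in Hi control cells. The 3 Lo PMX arrays stood apart from all 9 others. The difference in Lo cells was -2.90 ± 0.13 (SE, limma adjusted p = 3.6e-07), which ranked 1 of 18417 genes from the largest fall, and a 7.45-fold lower level. H2BC3 followed with -1.60 ± 0.21, at 5.65, 6.02 and 6.03 in Lo PMX cells, against 6.90, 7.74 and 7.86 in Lo control cells. H2BC9 had 10.47, 10.20 and 9.96 in Lo PMX cells, against 11.55, 11.55 and 11.92 in Lo control cells. For both genes the groups did not overlap, and H2BC9 differed by -1.46 ± 0.13 (limma adjusted p = 3.5e-05). The other 8 H2B genes that fell lay between -1.21 (H2BC7) and -0.52 (H2BC17), the pseudogene H2BC19P with -0.86 ± 0.17 among them.

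H1 genes encode linker histones, and 4 of 5 fell. H1-5 had 8.69, 8.57 and 8.41 in Lo PMX cells, against 10.02, 9.71 and 10.44 in Lo control cells, and the groups did not overlap. It differed by -1.50 ± 0.17 (limma adjusted p = 0.00022). H1-3 differed by -0.88 ± 0.14 and H1-2 by -0.72 ± 0.13. H1-4, the brightest of the histone genes at a mean of 13.42 over all arrays, differed by -0.43 ± 0.10. It was not called by limma when Lo PMX replicate 3 (-0.34, adjusted p = 0.069) or Lo control replicate 3 (-0.35, adjusted p = 0.067) was left out. H1-1 stayed between 5.77 and 5.96 in all 4 groups, with a difference of -0.01 ± 0.07 in Lo cells.

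All 8 H3 genes fell. H3C2 had 10.10, 9.91 and 9.49 in Lo PMX cells, against 10.87, 10.90 and 11.44 in Lo control cells, without overlap. It differed by -1.24 ± 0.17 (limma adjusted p = 0.0006). H3C1 differed by -1.34 ± 0.15 and H3C11 by -1.29 ± 0.13, and their Lo PMX arrays too were all below the Lo control arrays. The smallest differences were those of H3C8 at -0.39 ± 0.12 and H3C10 at -0.37 ± 0.11, which lay just inside the threshold with limma adjusted p of 0.0486 and 0.048. H3C8 lost the call when any 1 of 9 arrays was left out (any Lo PMX or Hi PMX array, Lo control replicate 3, Hi control replicates 1 or 2), with limma adjusted p of 0.053 to 0.15. H3C10 lost it without any 1 of 9 arrays too (any Lo PMX or Hi PMX array, Lo control replicates 2 or 3, Hi control replicate 2), with adjusted p of 0.053 to 0.19 in limma. H3C3, at -0.49 ± 0.11, lost it without Lo control replicate 3 (limma adjusted p = 0.054).

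Of the H2A genes, 10 of 14 fell. H2AC4 had 6.20, 6.68 and 6.49 in Lo PMX cells, against 7.42, 7.79 and 7.72 in Lo control cells. All 3 Lo PMX arrays were well below the 3 Lo control arrays. Its difference was -1.19 ± 0.12 (limma adjusted p = 9.0e-05), and that of H2AC15 was -1.34 ± 0.25. H2AC21, a bright gene of HIST2, had 11.25, 10.60 and 10.82 in Lo PMX cells, against 11.68, 11.57 and 12.11 in Lo control cells. It did not overlap either and differed by -0.90 ± 0.19. H2AC14, the dimmest of the histone genes, differed by -0.88 ± 0.18 at a level brighter than only 2.08% of all genes. H2AC20, of HIST2, overlapped between the groups at 10.38, 10.80 and 10.31 in Lo PMX cells, against 10.51, 11.09 and 11.68 in Lo control cells, and its difference of -0.60 ± 0.24 was not called, although it was without Lo control replicate 1 (-0.89, limma adjusted p = 0.018). The calls of H2AC8, H2AC13 and H2AC25 were each lost when 1 of several arrays was left out: Lo PMX replicates 1 or 3 for H2AC8 (limma adjusted p = 0.052 each), Lo PMX or Lo control replicates 2 or 3 for H2AC13 (0.054 to 0.11), and Lo PMX replicates 1 or 3 or Lo control replicates 2 or 3 for H2AC25 (0.085 to 0.12).

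H4 genes fell in 6 of 13 cases, with H4C14 and H4C15 counted as 2. H4C14 had 11.39, 10.63 and 11.06 in Lo PMX cells, against 11.89, 11.67 and 12.01 in Lo control cells. No Lo PMX array reached the Lo control range, and the difference was -0.83 ± 0.18 (limma adjusted p = 0.0098). H4C4 differed by -0.92 ± 0.19 and H4C13 by -0.82 ± 0.12. The calls of H4C1 (-0.64 ± 0.19) and H4C2 (-0.67 ± 0.19) were both lost when any 1 of 7 arrays was left out (any Lo PMX array, Lo control replicates 1 or 3, Hi PMX replicate 3 or Hi control replicate 2), with limma adjusted p of 0.056 to 0.14 for H4C1 and 0.051 to 0.15 for H4C2. H4C3, at -0.49 ± 0.15, lay just outside the threshold with a limma adjusted p of 0.053. It was called without Lo control replicate 1 (-0.66, adjusted p = 0.0083), Hi PMX replicate 3 (0.047) or Hi control replicate 3 (0.049). H4C6, H4C7 and H4C16 differed by -0.01, -0.09 and -0.04 and were not called.

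**Figure D2:**
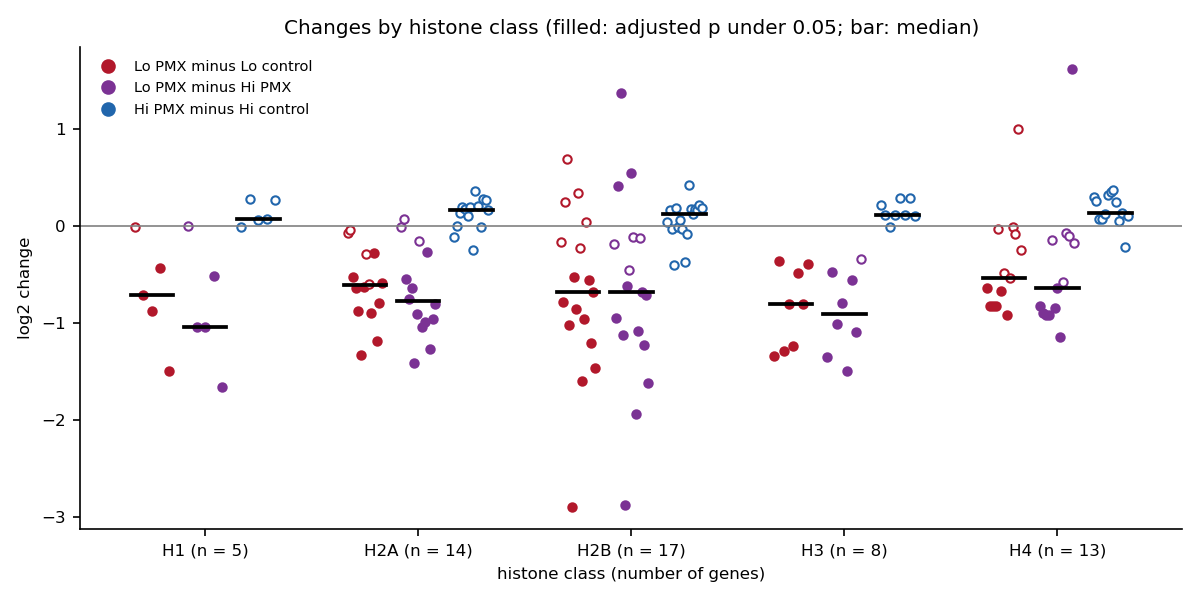
Log2 differences of the genes of each histone class in 3 comparisons, with 1 point per gene, filled where the limma adjusted p was under 0.05 and with the median as a bar. For Lo PMX minus Lo control the class medians were -0.72 (H1), -0.61 (H2A), -0.68 (H2B), -0.81 (H3) and -0.53 (H4), and all points of Hi PMX minus Hi control are open.

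Without the 2 doubtful controls 4 H1, 8 H2A, 11 H2B, 6 H3 and 4 H4 genes fell, and 1 H2B gene rose. By locus, 34 of 48 genes of HIST1, 4 of 6 of HIST2, 1 of 2 of HIST3 and 0 of 1 of HIST4 fell in Lo PMX cells, with medians of -0.64, -0.83, -0.26 and -0.04. The call in HIST3 was that of H2AC25, at -0.28 ± 0.08. Without the 2 arrays 29, 4, 0 and 0 genes of these loci fell. Called genes and genes without a call lay side by side within HIST1. Of 9 H2A and H2B gene pairs that start 215 to 248 bases apart in opposite directions, both genes fell in 4 (H2AC14 with H2BC14, H2AC13 with H2BC13, H2AC6 with H2BC4, H2AC8 with H2BC8). In 2 pairs 1 gene fell (H2BC17 beside H2AC17 at -0.29 ± 0.10, and H2AC25 beside H2BC26 at -0.23 ± 0.12), and in 3 pairs neither did. In the pair with the largest fall H2BC14 differed by -2.90 and H2AC14 by -0.88. The octamer stood in 12 of the 19 H2A and H2B promoters of genes that fell and in 7 of the 10 of genes without a call. The exact letters TATAAA stood in 9 of the 19 and in 9 of the 10, and the CCAAT box in all of both. Other spellings of the TATA box were not counted. The promoter stretches of paired genes overlap and both strands were searched, so the same box can be counted for both genes. H2AC14 and H2AC11, which start 245 and 248 bases from H2BC14 and H2BC11, were counted without an octamer although these partners hold it. These counts are therefore not of independent promoters, and no conclusion on the octamer is drawn from them.

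**Figure D3:**
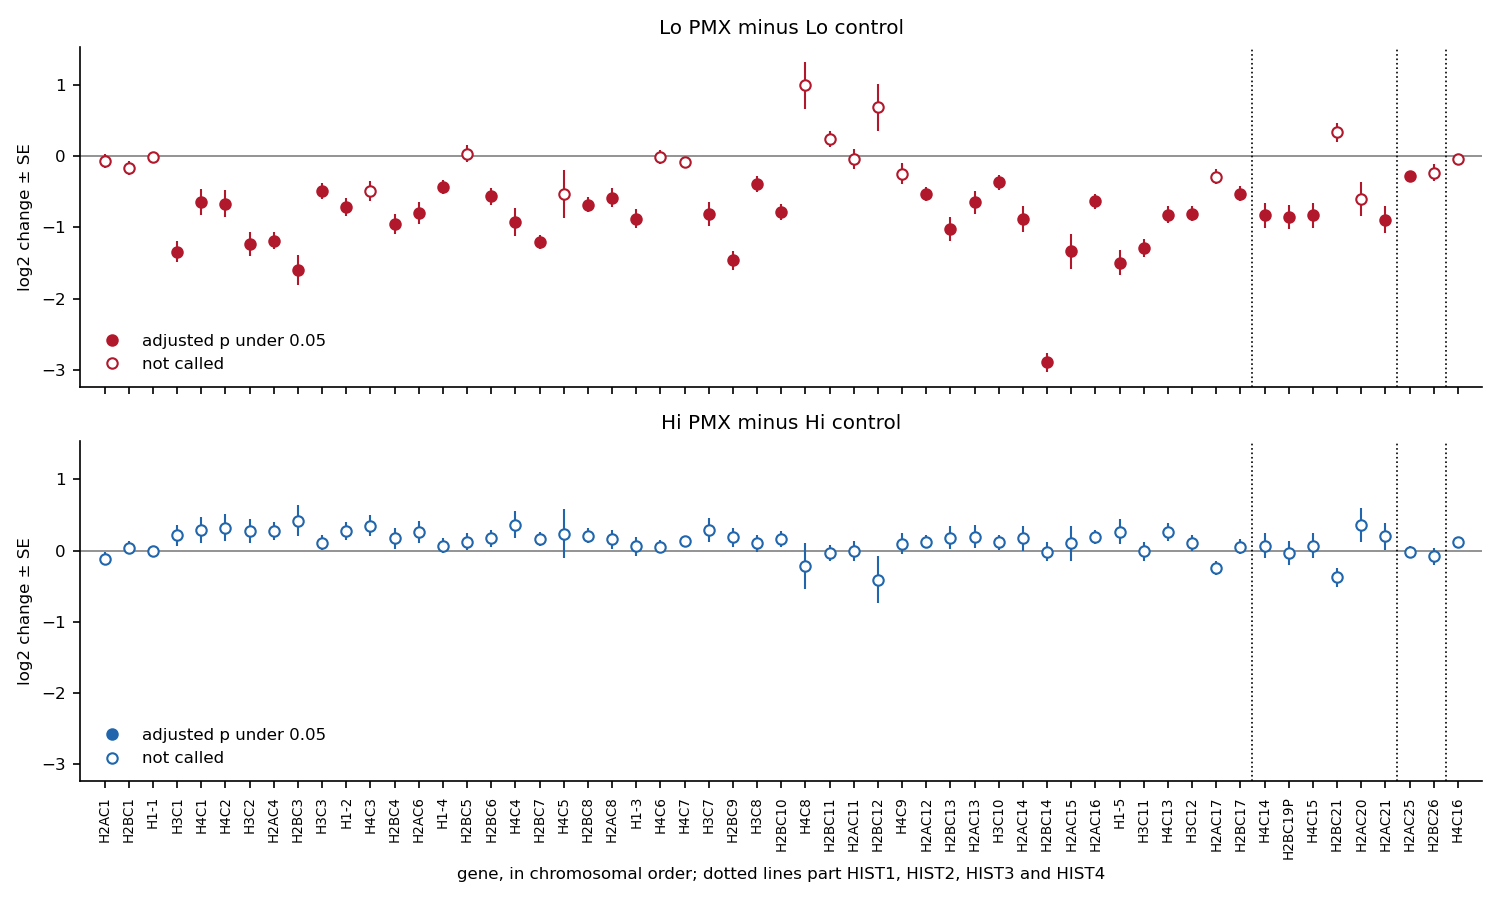
Log2 change with its SE for each gene in chromosomal order, in Lo cells (top) and in Hi cells (bottom), filled where the limma adjusted p was under 0.05. In Lo cells the filled points reach -2.90 at H2BC14, and open points above 0 mark H4C8, H2BC12, H2BC21, H2BC11 and, at 0.03, H2BC5, whereas in Hi cells every point lies between -0.41 and 0.42.

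The histone genes were also split by their mean level over all 12 arrays. Among the 29 at or above the median gene of the table, 22 fell and the median difference was -0.82, against 17 of 28 and -0.44 among those below it. Over all genes of any level 5.14% were called lower. The shares of all genes on each side of the median gene are not given here. Whether this split is particular to the histone genes was not tested. Without the 2 arrays 20 of the 29 and 13 of the 28 fell, with medians of -0.73 and -0.35. A dim probe set can hold mostly background, and how far that set the small differences of dim genes was not tested.

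Without a call, 4 genes were higher on every Lo PMX array than on every Lo control array, namely H4C8, H2BC12, H2BC21 and H2BC11. Of all 18417 genes 15.7% did not overlap in this direction, so the count is no excess. H4C8 had 10.03, 10.20 and 10.47 in Lo PMX cells, against 9.61, 9.56 and 8.55 in Lo control cells. All 3 Lo PMX arrays were higher, and the difference was 0.99 ± 0.32 (limma adjusted p = 0.072, or 0.035 without Hi control replicate 3). It was 0.65 ± 0.22 (limma adjusted p = 0.090) without the 2 arrays. H2BC12 had 12.10, 11.89 and 12.13 in Lo PMX cells, against 11.65, 11.78 and 10.63 in Lo control cells. The low value is that of the array labelled Lo control replicate 3, and the difference was 0.69 ± 0.33 (limma adjusted p = 0.24) with the 2 arrays and 0.33 ± 0.09 (adjusted p = 0.040) without them. H2BC21 differed by 0.33 ± 0.13 and H2BC11 by 0.24 ± 0.11.

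**Figure D4:**
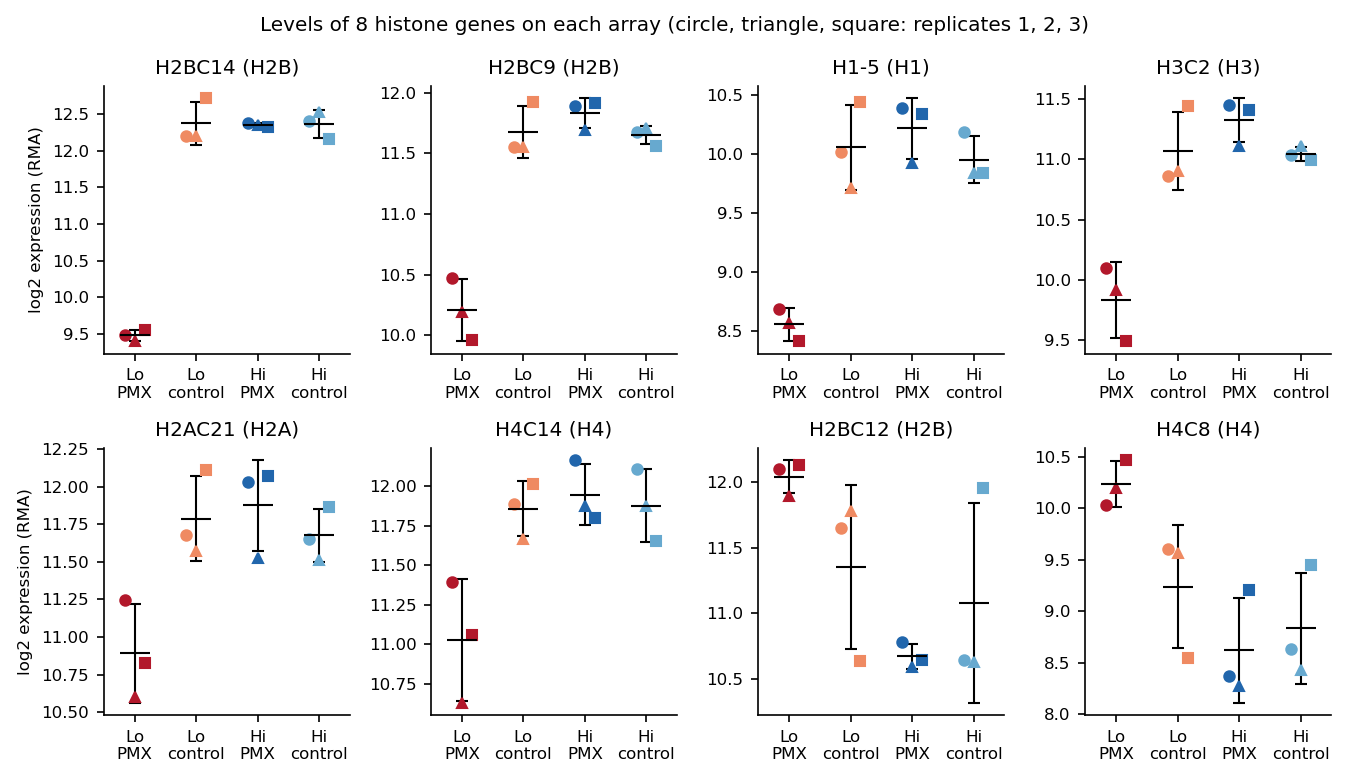
Log2 level of 8 histone genes on every array (circle, triangle and square for replicates 1, 2 and 3), with group mean and SD as bars, from left to right Lo PMX, Lo control, Hi PMX and Hi control. H2BC14, H2BC9, H1-5, H3C2, H2AC21 and H4C14 are lowest on the 3 Lo PMX arrays. H4C8 is highest there, and for H2BC12 the Lo PMX arrays are above all others but Hi control replicate 3.

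In Hi cells the same drug left the histone genes without a call. Of the 57 genes 0 were called in either direction by limma, as was 0% of all genes, and 4 passed an unadjusted p under 0.05, as did 266 of all 18417 genes. The 4 were H2AC4 (0.28 ± 0.12), H4C3 (0.35 ± 0.15), H2AC17 (-0.25 ± 0.10) and H2BC21 (-0.38 ± 0.13). The median difference, Hi PMX minus Hi control, was 0.13, and 44 of the 57 were above 0, against a median of 0.00 and 49.4% above 0 over all genes. Every Hi PMX array was above every Hi control array for 10 histone genes and below for 2, where 2.48% and 2.96% of all genes did not overlap in these directions. H3C2 was 1 of the 10, at 11.45, 11.12 and 11.41 in Hi PMX cells, against 11.04, 11.11 and 10.99 in Hi control cells, with a difference of 0.28 ± 0.17. The median SE of these differences was 0.13, so a shift of this size in a single gene was not detectable with 3 arrays a group. Without the 2 arrays the count stayed at 0 and the median was 0.14.

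Between the untreated cultures, Lo control minus Hi control, 0 of the 57 genes were called by limma, as was 0% of all genes, and 1, H2AC14, passed an unadjusted p under 0.05 (0.41). The median was 0.06, and the groups did not overlap for 0 genes in the lower and 4 in the higher direction, where 3.61% and 2.14% of all genes did so. Without the 2 arrays, 2 genes were called higher in Lo control cells, where 3.67% of all genes were called higher and 3.5% lower. With the replicate block on the 10 arrays 3 were higher and 3 lower, without the shares of all genes in that fit. These 2 arrays were left out because they lay with the other folate level, so these calls depend on that choice and their SE and p are no independent test of it. H2BC12 had 11.65, 11.78 and 10.63 in Lo control cells, against 10.65, 10.63 and 11.96 in Hi control cells. In each group the array labelled replicate 3 lay at the level of the other group. Its difference was 1.07 ± 0.10 (limma adjusted p = 5.7e-05) without these 2 arrays. H4C8 had 9.61, 9.56 and 8.55 in Lo control cells, against 8.63, 8.43 and 9.45 in Hi control cells. The same 2 arrays lay out of place, and its difference was 1.05 ± 0.24 (limma adjusted p = 0.021) without them. The median over the 57 genes was then -0.04.

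The comparison of treated cells, Lo PMX minus Hi PMX, uses none of the controls in its difference. It shares the Lo PMX arrays with the comparison in Lo cells. In limma 39 histone genes were lower in Lo PMX cells and 4 higher, where 11% of all genes were called lower and 11.3% higher, and the median was -0.75 against 0.01 over all genes. Of the 57 genes 43 did not overlap in the lower direction and 4 in the higher, where 18.7% and 18.6% of all genes did so. Of the 43 genes called in either direction here, 37 were among the 39 that fell against Lo control. Without the 2 arrays, which enter only through the shared spread, the counts were 40 lower and 4 higher, where 14% and 13.7% of all genes were called.

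H2BC14 differed by -2.87 ± 0.13 between treated cells (limma adjusted p = 4.1e-07), H2BC3 by -1.93 ± 0.21, H1-5 by -1.66 ± 0.17, H2BC9 by -1.62 ± 0.13 and H3C2 by -1.49 ± 0.17. H2AC20, without a call within Lo cells, was 10.38, 10.80 and 10.31 in Lo PMX cells, against 11.40, 11.52 and 11.70 in Hi PMX cells. These arrays did not overlap, and the difference was -1.04 ± 0.24 (limma adjusted p = 0.0076). H4C3 was also called here, at -0.64 ± 0.15. The calls of H2AC14 (-0.64 ± 0.18) and H2AC25 (-0.27 ± 0.08) were lost when any 1 of several arrays was left out. For H2AC14 the difference was then -0.64 to -0.50, with limma adjusted p of 0.055 to 0.096 (without Lo PMX replicates 1 or 3, or any Hi PMX replicate). For H2AC25 it was -0.27 to -0.23, with adjusted p of 0.053 to 0.087 in limma (without Lo PMX replicates 1 or 3, or Hi PMX replicates 2 or 3).

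The 4 genes called higher in Lo PMX cells were H4C8, H2BC12, H2BC21 and H2BC11. H4C8 had 10.03, 10.20 and 10.47 in Lo PMX cells, against 8.38, 8.28 and 9.20 in Hi PMX cells, a difference of 1.61 ± 0.32 (limma adjusted p = 0.0037). H2BC12 had 12.10, 11.89 and 12.13 in Lo PMX cells, against 10.78, 10.59 and 10.64 in Hi PMX cells, a difference of 1.37 ± 0.33 (adjusted p = 0.010). In both genes every Lo PMX array was higher, and H4C8 varied more than H2BC12 among the Hi PMX arrays. H2BC21 had 9.26, 9.24 and 9.66 in Lo PMX cells, against 8.82, 8.86 and 8.86 in Hi PMX cells. H2BC11 had 7.50, 7.78 and 7.53 in Lo PMX cells, against 7.21, 7.19 and 7.17 in Hi PMX cells. These differences of 0.54 ± 0.13 and 0.41 ± 0.11 were not called by limma without Lo PMX replicate 3 for H2BC21 (0.40, adjusted p = 0.056), nor without Lo PMX replicate 2 (0.32, adjusted p = 0.075) or Hi PMX replicate 3 (0.40, adjusted p = 0.052) for H2BC11.

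Of the 57 genes, 5 have a RefSeq locus longer than 1000 bases: H4C15 (16753 bases), whose values are those of H4C14, H2BC5 (13229), H2BC4 (10757), H2BC12 (8566) and H2BC21 (2224). H4C15 was called lower in both comparisons, at -0.83 ± 0.18 within Lo cells and -0.92 ± 0.18 between treated cells. H2BC4 fell within Lo cells by 0.96 ± 0.14 on the log2 scale, and H2BC5 was within 0.13 of no difference in both comparisons. H2BC12 and H2BC21 are among the 4 genes that were higher in Lo PMX than in Hi PMX cells. The other 2 higher genes, H4C8 and H2BC11, have short loci.

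The response to pemetrexed differed between the cultures for 29 histone genes, all more negative in Lo than in Hi cells. This was tested in limma as the Lo difference minus the Hi difference, for which 2.24% of all genes were called more negative and 2.57% more positive, or 4.81% in all. The median was -0.84 over the 57 genes and 0.02 over all genes. The count was 25 without the 2 arrays, where 2.14% of all genes were called more negative and 2.02% more positive. It was 39 (38 more negative) on those 10 arrays with the replicate block, and 18 without Lo PMX replicate 3. The shares of all genes called with the block or without that replicate are not given here. By class, 9 H2B, 8 H2A, 6 H3, 3 H1 and 3 H4 genes were called. H2BC14 had -2.88 ± 0.18 (limma adjusted p = 2.6e-05), H2BC3 -2.02 ± 0.30 and H1-5 -1.76 ± 0.25. Of the 29 genes 28 were among those that fell in Lo cells, and H4C3 was the other one, with -0.84 ± 0.21 (adjusted p = 0.039). Without the 2 arrays H4C3 was not called (-0.65 ± 0.19, limma adjusted p = 0.092).

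A further 13 protein-coding genes of the same families were covered only by probe sets shared between several symbols. In all, 20 shared probe sets carried a histone gene of the rule, some of them only genes already among the 57, and 17 of the 20 have distinct values. In 14 of these 17 the Lo PMX mean was below the Lo control mean, in 11 without overlap, and 1 was above without overlap, where 14.1% and 15.7% of all genes did not overlap in these directions. The lowest difference was -0.92, on a probe set shared by H3C13, H3C14 and H3C15, at 12.01, 11.47 and 11.24 in Lo PMX cells, against 12.43, 12.25 and 12.80 in Lo control cells. The highest was 0.70, on a probe set shared by H4C14 and H4C15, at 8.89, 8.78 and 9.09 in Lo PMX cells, against 8.71, 8.56 and 7.38 in Lo control cells. For these 2 genes the shared probe set and the brighter single-symbol one, at -0.83, went in opposite directions. H2BC21 and H2BC12, higher in Lo PMX cells on their own probe sets, also conflicted with shared ones. The set of H2BC19P, H2BC20P and H2BC21 differed by -0.50 in Lo cells, without overlap, and by -0.57 for Lo PMX minus Hi PMX. That of H2BC12, H2BC12L, H2BC17 and H2BC5 differed by -0.25, with overlap, and by -0.19. Another set, of H2BC18, H2BP1 and H2BC21, differed by -0.11, with overlap, and by 0.34. These probe sets entered no test.

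The proteins that transcribe and process histone mRNA did not move as a block. Of 23 measured factors of histone transcription and 3′ end processing, 5 fell and 3 rose in Lo PMX cells, where 5.14% and 5.6% of all genes did so. Without the 2 doubtful controls 3 fell and 2 rose. NPAT, the coactivator of these genes, had 9.87, 9.86 and 9.90 in Lo PMX cells, against 10.08, 10.12 and 10.28 in Lo control cells, and differed by -0.28 ± 0.08 (limma adjusted p = 0.046). It was below all Lo control arrays, of which the doubtful replicate 3 was the highest. The call lay just inside the threshold, and whether it held without the 2 doubtful controls is not given here. E2F1, an S phase transcription factor, fell by 0.82 ± 0.12, CDK2, the kinase that phosphorylates NPAT, by 0.69 ± 0.11, and its cyclin CCNE1 by 0.53 ± 0.12. HINFP, a transcription factor of H4 genes, rose by 0.29 ± 0.07, and ZNF473, a zinc finger protein of the U7 snRNP pathway, by 0.36 ± 0.09. SLBP, the stem-loop binding protein, had 10.40, 10.68 and 10.31 in Lo PMX cells, against 10.49, 10.72 and 10.81 in Lo control cells. These overlapped, and the difference of -0.21 ± 0.12 was not called.

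Of 16 factors of histone mRNA translation and decay, 4 fell and 2 rose in Lo PMX cells, where 5.14% and 5.6% of all genes did so. TUT7, a terminal uridylyltransferase, rose by 0.55 ± 0.10, and LSM1, of the ring that binds oligouridylated ends, by 0.44 ± 0.08. CCNF, the F-box protein that targets SLBP for degradation, fell by 0.86 ± 0.09, and MIF4GD, an SLBP-binding translation factor, by 0.49 ± 0.11. Of 30 histone chaperones and assembly factors 11 fell and 1 rose, against the same shares of all genes. The counts of both lists were the same without the 2 controls. HJURP, the CENPA chaperone, fell by 0.89 ± 0.13, CHAF1B, of the assembly factor CAF-1, by 0.88 ± 0.12, ANP32E, an H2A.Z chaperone, by 0.84 ± 0.11, and ASF1B, an H3-H4 chaperone, by 0.75 ± 0.12. NASP, the H3-H4 and H1 chaperone, differed by -0.27 ± 0.13 and was not called. The medians of these 3 lists were -0.08, -0.11 and -0.29, against 0.02 over all genes.

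Among the replication-independent variants 3 of 9 fell in Lo PMX cells, with or without the 2 controls, where 5.14% of all genes fell. H2AZ2 fell by 0.71 ± 0.10, H2AX by 0.54 ± 0.11 and H2AZ1 by 0.53 ± 0.09. H3-3B, 1 of the genes for H3.3, had 11.12, 11.19 and 11.24 in Lo PMX cells, against 11.15, 11.16 and 11.09 in Lo control cells. It overlapped and differed by 0.05 ± 0.07. Of 6 testis histones 0 were called, with 0 at an unadjusted p under 0.05, and their differences lay between -0.13 and 0.12. H3-3A and CENPA were not analysed here.

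S phase genes were lower on the same arrays. Of 43 genes of S phase and DNA replication 27 fell and 0 rose in Lo PMX cells, where 5.14% of all genes fell and 5.6% rose. The median was -0.65, and without the 2 controls 28 fell and it was -0.61. MCM6, of the replicative helicase, fell by 1.68 ± 0.13 and CCNA2, the S phase cyclin, by 1.58 ± 0.12, while PCNA differed by 0.16 ± 0.10 and was not called. In Hi cells 0 of the 43 were called by limma, with 1 at an unadjusted p under 0.05. How much of the histone change follows the S phase genes was not tested.

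Of the markers of the cell types behind the line, most endothelial ones were also lower in Lo PMX cells, and few epithelial ones were called. The mean of 10 endothelial markers per array was 9.89 to 10.01 in Lo PMX cells, against 10.27 to 10.94 in Lo control cells. It was 10.88 to 11.08 in Hi PMX cells, against 10.30 to 11.12 in Hi control cells. Of the 10, 4 fell in Lo PMX against Lo control cells and 0 rose, with a median of -0.64, where 5.14% and 5.6% of all genes did so. Without the 2 controls 5 fell, with a median of -0.36, where 5.74% of all genes fell. Also without them, 5 were lower in Lo control than in Hi control cells, where 3.5% of all genes were called lower. Between treated cells 9 of the 10 were lower in Lo PMX than in Hi PMX cells, where 11% of all genes were called lower. Their median was -0.87. The mean of 9 epithelial and lung carcinoma markers was 8.12 to 8.13 in Lo PMX cells, against 7.84 to 8.04 in Lo control cells, with 0 called and 1 at an unadjusted p under 0.05 in limma, and 1 called higher without the 2 controls. Between treated cells 1 of the 9 was lower and 2 were higher in Lo PMX cells, where 11% and 11.3% of all genes were called. Their median was 0.02, and the highest difference, that of 1 gene, was 2.82. Of 6 leukocyte markers 1 fell and of 7 fibroblast and smooth muscle markers 0 were called. Their part in the histone differences was not tested.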

How the data were processed

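Total RNA of 12 cultures was hybridised to Affymetrix arrays. The authors deposited 1 log2 value for each probe set and array, made with RMA in Partek 6.5 per the submitters' processing notes. The sources used here do not give the genome build, the RMA settings or how the target was primed (random or oligo-dT), which bears on mRNAs that have no poly(A) tail. RMA quantile normalization assumes like overall distributions on all arrays, and cross-hybridisation among near-identical histone genes limits single-gene values.

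Of 33297 probe sets, 19460 had 1 gene symbol and 1754 several. Symbols were updated by Entrez identifier (19429 found) to the RefSeq genes of GRCh38.p14, and the brightest probe set was kept per gene, which gave 18417 genes. A linear model that gave each group its own mean used all 12 arrays (limma 3.58.1, R 4.3.3, 8 residual degrees of freedom, no filter on dim genes). Tests were two-sided with Benjamini-Hochberg adjustment over all genes per contrast, and a gene was called at an adjusted p under 0.05. Errors after ± are standard errors. All p-values rest on the spread among biological replicates from a single line. The fit was tested on simulated data. With no background signal or detection call used, it is unknown which dim genes were detectable.

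The labels do not say what a replicate number shares, so the numbers were not taken as pairs in the fit to all 12 arrays. Same-numbered arrays deviated together from their group means in 11 of 18 pairs (r over 0.1). Without the 2 doubtful controls all 13 pairs did, and counts on those 10 arrays are given with a block as well. The 2 arrays left in each control group deviate as mirror images, so these 13 pairs are not separate agreements. The alternatives were leaving out each array, leaving out both doubtful controls, a replicate block, no variance moderation, only the groups compared, median centring, quantile normalization, a filter on dim genes and the mean of all probe sets.

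Histone genes called in any contrast, the 3 brightest, the 3 dimmest and those nearest the threshold may be named, as may from each other list at most 6 called genes with the smallest p in Lo cells and a fixed set of 12. H2AC17, H2BC26, H1-1, H2BC5, H4C5, H4C6, H4C7 and H4C16 were named after their values were seen. The genes and lists were chosen with earlier results of these data known.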

Additional observations from a re-analysis of the deposited data

Results flagged for a closer look

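The response to pemetrexed in Lo cells minus that in Hi cells passed limma's test for 29 histone genes, where 4.81% of all genes were called. Each value below is this difference of log2 changes, more negative in Lo cells. Without the 2 doubtful controls H2AC8, H2AC14, H3C3 and H4C3 were no longer called (limma adjusted p = 0.066, 0.068, 0.11 and 0.092). Among H2B genes it was -2.88 for H2BC14, -2.02 for H2BC3, -1.65 for H2BC9, -1.37 for H2BC7, -1.20 for H2BC13, -1.13 for H2BC4, -0.95 for H2BC10, -0.89 for H2BC8 and -0.74 for H2BC6. Among H2A genes it was -1.46 for H2AC4, -1.43 for H2AC15, -1.10 for H2AC21, -1.06 for H2AC6, -1.05 for H2AC14, -0.82 for H2AC16, -0.74 for H2AC8 and -0.66 for H2AC12. Among H3 genes it was -1.55 for H3C1, -1.52 for H3C2, -1.28 for H3C11, -1.10 for H3C7, -0.91 for H3C12 and -0.60 for H3C3. H1-5 had -1.76, H1-2 -0.99 and H1-3 -0.94, and among H4 genes H4C4 had -1.29, H4C13 -1.08 and H4C3 -0.84.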

How the results depend on the processing

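No histone gene called in Lo cells or between treated cells changed direction under any alternative run. The median over the 57 genes between controls went from 0.06 to -0.04 without the 2 doubtful arrays. With only the genes at or above the median gene tested, 23 histone genes were called in Lo cells and 27 between treated cells, out of the 29 that remained to be tested. Between controls, leaving out the 2 doubtful arrays gave 2 calls. Leaving out 1 array at a time gave 31 to 41 calls in Lo cells, 40 to 44 between treated cells, 18 to 33 for the difference of responses, and 0 in Hi cells and between controls. Without variance moderation the difference of responses had 14 calls, and Lo cells 27. With the replicate number as a block the counts were 40 in Lo cells, 0 in Hi cells, 0 between controls, 46 between treated cells and 34 for the difference of responses. The block without the 2 arrays gave 40, 0, 6, 46 and 39 in the same order. In those 10 arrays all 13 same-numbered pairs correlated above 0.1 (0.115 to 0.543), against -0.656 to 0.514 over all 12 arrays. These 13 are not separate agreements, since the 2 arrays left in each control group deviate as mirror images. The cause of these shifts was not tested, apart from the smaller number of genes under the filter. Apart from the fit without the 2 doubtful arrays, the shares of all genes called under these alternatives are not given here. The limits are 3 arrays a group, 2 controls that lie with the other folate level, unknown detection of dim genes and probe sequence shared among near-identical genes.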

Other observations

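H4C5, chosen after its values were seen, varied more within groups than between them. It had 10.10, 9.01 and 8.95 in Lo PMX cells, against 10.26, 9.53 and 9.87 in Lo control cells. It had 10.37, 9.59 and 9.84 in Hi PMX cells, against 10.31, 9.61 and 9.16 in Hi control cells. The array labelled replicate 1 was the brightest in all 4 groups, which held for 3 other histone genes of the 57, H4C1, H4C6 and H2BC5. The difference in Lo cells was -0.53 ± 0.34 (limma adjusted p = 0.40). A fit that blocked on replicate numbers gave it an adjusted p of 0.048. The probe sets that carry H2BC18 together with other symbols differed among themselves in Lo cells, at -0.48, -0.11, 0.03 and 0.17 for Lo PMX minus Lo control.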
